A study of Mus musculus with 2 samples.

Results

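Prox1 and Lhx1 are transcription factor genes of the horizontal cell, and their surroundings were read here from maps of open chromatin in the embryonic mouse retina. Both genes were taken by name, 2 of 21938 protein-coding genes in the annotation. For each gene, every peak and every broader region of cutting, called a hotspot, was taken that touched the gene body or the 150 kb on either side of it. The material was retina of healthy B6NCrl mouse embryos at embryonic day 14.5, pooled from males and females, in 1 group of 2 biological replicates with separate biosample labels and the same donor label. DNase-seq cuts nuclei with DNase I, and the enzyme reaches DNA where nucleosomes are displaced. In a pooled tissue, a site open in few cells and a site weakly open in many cells cannot be told apart. There was no other tissue, age or treatment, so the windows of the other coding genes served as the comparison.

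Horizontal cells are inhibitory interneurons that link photoreceptors sideways in the outer retina, and they are among the early-born neurons of the mouse retina. Prox1 encodes a homeodomain protein related to Drosophila prospero, and mice that lack it in the retina fail to make horizontal cells. Lhx1, also known as Lim1, encodes a LIM homeodomain protein that horizontal cells need to settle in their proper layer. Prox1 also acts in the lens, the lymphatic endothelium and the liver, and Lhx1 in the kidney and in cerebellar Purkinje cells. Upstream of both in horizontal cell formation stand Foxn4 and Ptf1a, which act in progenitors and newly committed cells, and the Onecut factors.

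In mm10, Prox1 (ENSMUSG00000010175.13) lies on the minus strand at chr1:190118035-190170714 and spans 52680 bp. Its window, chr1:189968035-190320714, held the 5' end of 0 other coding genes, where the median window held 6 and 5.11% held as few. The next coding genes started 741 kb upstream (Rps6kc1) and 248 kb downstream (Smyd2). The non-coding gene Prox1os runs on the plus strand from inside Prox1 far into its upstream region, at chr1:190170296-190217276, and shares the promoter with it. Lhx1 (ENSMUSG00000018698.15) lies on the minus strand at chr11:84518284-84525535 and spans only 7252 bp. Its window, chr11:84368284-84675535, held the 5' end of 1 other coding gene, Aatf, which codes for a nuclear protein and starts 12.0 kb downstream. The non-coding gene Lhx1os starts 125 bp upstream of Lhx1 on the other strand, and the 3' part of Acaca reaches into the far downstream end of the window.

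The sequences below belong to the strongest peak at each promoter and to the 3 strongest peaks away from promoters that both libraries held, because these sites carry the ranks described further on. The boundaries are those of replicate 1. All were read from the RefSeq GRCm38.p6 genome, the same assembly as mm10, and all are written 5' to 3' on the minus strand, the strand of both genes. Capitals mark matches, on either strand, to the letters searched. These were TAATTA for homeodomain factors, CAGCTG and CAGATG for basic helix-loop-helix factors (E-boxes), ATCAAT and ATCGAT for Onecut factors, AGGTCA for nuclear receptors, GCCNNNGGC for TFAP2, GGGCGG for SP and KLF factors and CCANNAGNNGGC for CTCF. Searched too, with no match in these stretches, were TAATCC for OTX and CRX factors, ATGCAAAT for POU factors, ACAATG for SOX factors and TGACAG for MEIS factors. The same held for GGAATG of TEAD factors, GTGGGAA of the Notch effector RBPJ, and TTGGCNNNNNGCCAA of NFI factors. Of the strongest Prox1 promoter peak, which straddles the 5' end given above and lies in the noncoding start of a longer RefSeq transcript, only the 30 bases around each of its CAGCTG matches are shown, at chr1:190170707-190170736 and chr1:190170665-190170694.
Prox1 promoter, upper match: tcctgtttccttCAGCTGtgtcttaaagta
Prox1 promoter, lower match: gagcggagccctCAGCTGagagagcgctgg
The next 3 sequences are the leading distal peaks of Prox1, meaning peaks over 1 kb from any annotated transcript start, at chr1:190192136-190192285 in an intron of Prox1os, chr1:189973136-189973285 and chr1:190045916-190046065, the last pair intergenic.
Prox1 distal, 21.5 kb upstream: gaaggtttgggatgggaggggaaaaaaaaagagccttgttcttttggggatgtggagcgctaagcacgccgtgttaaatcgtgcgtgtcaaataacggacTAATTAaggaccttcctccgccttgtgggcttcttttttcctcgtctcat
Prox1 distal, 197.5 kb downstream: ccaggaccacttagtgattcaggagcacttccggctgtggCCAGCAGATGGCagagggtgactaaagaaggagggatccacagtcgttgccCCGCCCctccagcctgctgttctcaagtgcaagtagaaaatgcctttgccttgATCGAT
Prox1 distal, 124.7 kb downstream: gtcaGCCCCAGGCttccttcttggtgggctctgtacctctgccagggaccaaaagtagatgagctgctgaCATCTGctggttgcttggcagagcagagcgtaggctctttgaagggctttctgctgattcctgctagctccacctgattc
For Lhx1, the part of the strongest promoter peak that lies upstream of the gene, chr11:84525536-84525645, is given first and held no match. The 3 leading distal peaks follow, at chr11:84662096-84662245 (intergenic), chr11:84429676-84429825 (an intron of Aatf) and chr11:84382556-84382705 (an intron of Acaca). At the last, the peak of replicate 2, chr11:84382596-84382745, leaves out the CAGCTG and Onecut matches shown and holds only the nuclear receptor letters.
Lhx1 promoter, upstream of the 5' end: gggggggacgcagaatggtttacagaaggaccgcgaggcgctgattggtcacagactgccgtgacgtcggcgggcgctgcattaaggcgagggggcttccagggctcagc
Lhx1 distal, 136.6 kb upstream: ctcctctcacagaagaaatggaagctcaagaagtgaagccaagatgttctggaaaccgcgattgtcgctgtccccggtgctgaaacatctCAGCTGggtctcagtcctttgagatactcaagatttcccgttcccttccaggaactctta
Lhx1 distal, 95.8 kb downstream: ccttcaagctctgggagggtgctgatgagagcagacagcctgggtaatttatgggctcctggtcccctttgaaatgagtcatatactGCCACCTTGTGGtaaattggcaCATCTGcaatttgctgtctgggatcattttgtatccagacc
Lhx1 distal, 142.9 kb downstream: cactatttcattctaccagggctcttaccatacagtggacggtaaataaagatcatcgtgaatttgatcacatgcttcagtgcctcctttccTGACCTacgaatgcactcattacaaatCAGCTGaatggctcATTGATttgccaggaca

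A match describes letters and not a bound factor, and the share of all distal peaks with the same letters is given for each. The homeodomain letters TAATTA, present in the leading Prox1 distal peak, occurred in 5.77% of all distal peaks of replicate 1 and 7.17% of replicate 2. The CTCF letters, present in the second distal peak of each gene, occurred in 9.74% and 8.29%. In the Prox1 peak they contain a CAGATG match, so those 2 matches are not separate. The letters ATCGAT, at the edge of the same Prox1 peak, were the rarest of those shown, in 0.648% and 0.681% of distal peaks. CAGCTG occurred in 14.7% and 15.2%, CAGATG in 16.4% and 17.0%, and AGGTCA in 11.9% and 12.5%. ATCAAT occurred in 5.66% and 6.66%, the TFAP2 letters in 5.23% and 4.80%, and GGGCGG in 5.28% and 4.95%.

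Replicate 1 held 165269 distinct peaks and replicate 2 held 219308, or 1.33 times as many. Replicate 1 was also run on an instrument model that replicate 2 was not, so replicate and instrument cannot be told apart, and the files give no read numbers. Each peak was 150 bp wide and carried a score of the authors, which is used here only as a percentile rank within its own library, 100 being the strongest. Promoter peaks, within 1 kb of any annotated transcript start, were present in both libraries at 68.8% of all coding genes. They were present in both at all 8 of the retinal progenitor markers and at 7 of 8 horizontal cell markers, Gja10 being without. The horizontal cell markers include Prox1 and Lhx1 themselves. Promoter peaks were absent in both libraries at all 4 blood and microglia markers. Of the markers of other cells that use Prox1, 2 of 4 lymphatic, 1 of 4 lens and 2 of 4 liver genes had promoter peaks in both libraries. Of those of other cells that use Lhx1, 4 of 4 kidney and 1 of 3 Purkinje cell genes had them. An open promoter does not identify a cell type, and the part of such cells in the results was not tested.

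Both genes had open promoters in both libraries, as did 68.8% of coding genes. The Prox1 promoter held 2 peaks in each library. The one over the 5' end scored 101 in replicate 1 and 125 in replicate 2, ranks of 93.8 and 95.9. The other lay 1.36 kb into the gene, scored 79 and 103, and ranked 87.8 and 89.1. Prox1 thus had an ordinary number of promoter peaks, and the stronger one stood close to the middle of open promoters, whose median best rank was 95.0 and 95.9. It exceeded 42.2% of them in replicate 1 and 49.1% in replicate 2. RefSeq's stretches around the 2 promoters of Prox1 (chr1:190170778-190171077 and chr1:190169466-190169765) are rich in G and C, at 64.3% and 57.3%, and overlapped 0 peaks in either library, since both peaks lay inside the RefSeq transcripts, past the end of these stretches.

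Lhx1 had weaker but more numerous promoter peaks, 6 in replicate 1 and 10 in replicate 2, against medians of 2 and 3 for open promoters. These numbers exceeded those of 94.7% and 98.9% of all coding genes. Lhx1 has 4 annotated transcript starts, where Prox1 has 3. Those of Lhx1 are spread over its short body, so its promoter space is wider than that of a gene with 1 start. The strongest, whose middle lay 36 bp upstream of the 5' end in replicate 1, scored 83 and 99 and ranked 89.2 and 87.4, above only 28.1% and 23.6% of open promoters. The other 5 that both libraries held ranked between 45.5 and 72.4 in replicate 1 and between 55.4 and 77.2 in replicate 2. The 4 promoter peaks that replicate 2 alone held, 3.36 to 4.16 kb inside the gene, ranked only between 14.7 and 33.7. The strongest peak of the whole Lhx1 window was that of the neighbour Aatf, with ranks of 98.5 and 98.7.

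**Figure D1:**
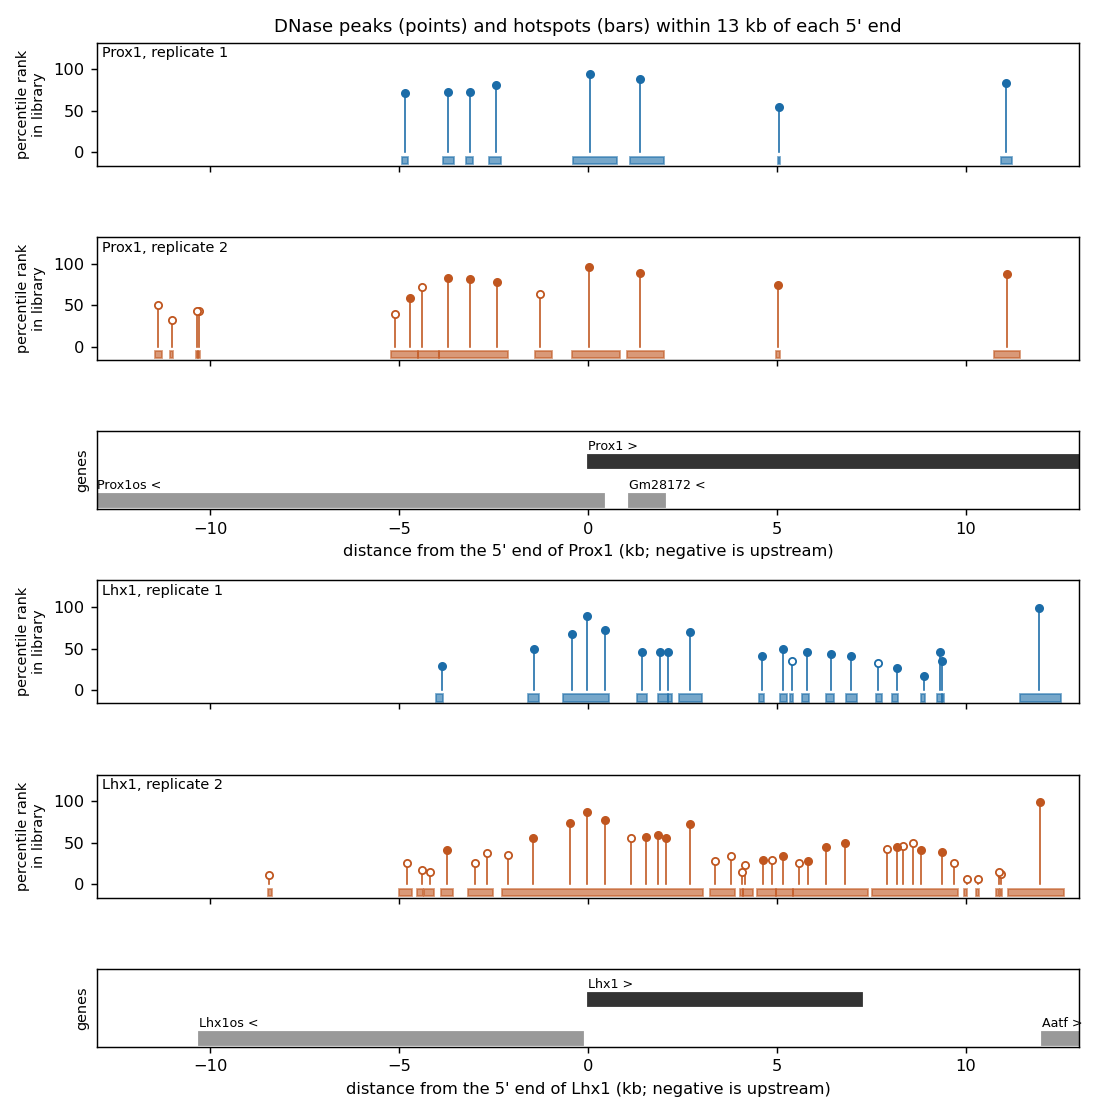
Percentile rank of each peak in its library (vertical lines with points, filled where a peak of the other library overlapped) and hotspots (bars under the axis) against distance from the 5' end in kb, with gene bodies below. Prox1 shows fewer peaks than Lhx1 but of higher rank, 7 and 9 within 5 kb. Lhx1 shows a run of many peaks, mostly of low to middle rank, 10 and 22 within 5 kb. The median for genes with a promoter peak was 3.

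The genes differed in the ground close to their 5' ends. Within 5 kb on either side of the Prox1 start there were 7 peaks in replicate 1 and 9 in replicate 2, and all of them ranked 50 or above. Within the same distance of Lhx1 there were 10 and 22 peaks, of which only 4 and 9 ranked 50 or above. The median for genes with a promoter peak was 3 in both libraries. Lhx1 exceeded 97.9% and 99.96% of all coding genes by this count, and Prox1 93.3% and 95.6%. Among genes with a promoter peak, Lhx1 exceeded 97.1% and 99.94%, and Prox1 90.5% and 93.8%.

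At Lhx1 the run of peaks went on to 10 kb on the downstream side, over the gene body and toward Aatf. Within 10 kb on either side there were 20 peaks in replicate 1 and 36 in replicate 2, with median ranks of 45.5 and 38.4. Upstream, the only peak between 5 and 10 kb was held by replicate 2, at 8.44 kb (rank 10.8). Prox1 gained 0 and 1 peaks between 5 and 10 kb. Lhx1's gene body alone held 11 and 17 peaks in its 7.25 kb. Hotspots covered 40.3% of the Lhx1 body in replicate 1 and 94.1% in replicate 2. The widest hotspot of the Lhx1 window in replicate 2, at chr11:84522484-84527816, was 5333 bp wide, held 10 peaks, and was wider than 99.96% of that library's hotspots. It reached from 3.05 kb inside the gene to 2.28 kb upstream, into Lhx1os. In replicate 1 the same ground was broken up, and its widest hotspot, over the 5' end, measured 1217 bp with 3 peaks.

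Upstream of Prox1, inside an intron of Prox1os, lay a tight group of peaks. Replicate 1 had 4, at 2.44, 3.12, 3.70 and 4.84 kb upstream, with ranks of 81.2, 72.4, 72.4 and 71.0. Replicate 2 overlapped all of these, with ranks of 77.7, 81.6, 82.1 and 58.8. It added peaks at 4.40 kb (rank 72.2) and 5.10 kb (rank 39.3), and nearer the start at 1.28 kb (rank 63.7). The peak at 4.40 kb was the strongest in the Prox1 window that replicate 2 alone held. In replicate 2 a single hotspot of 1832 bp, the widest of the window, covered 3 of them. Inside the gene, intron peaks at 11.1 kb (ranks 83.6 and 86.9) and 21.9 kb (73.8 and 88.3) stood highest.

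**Figure D2:**
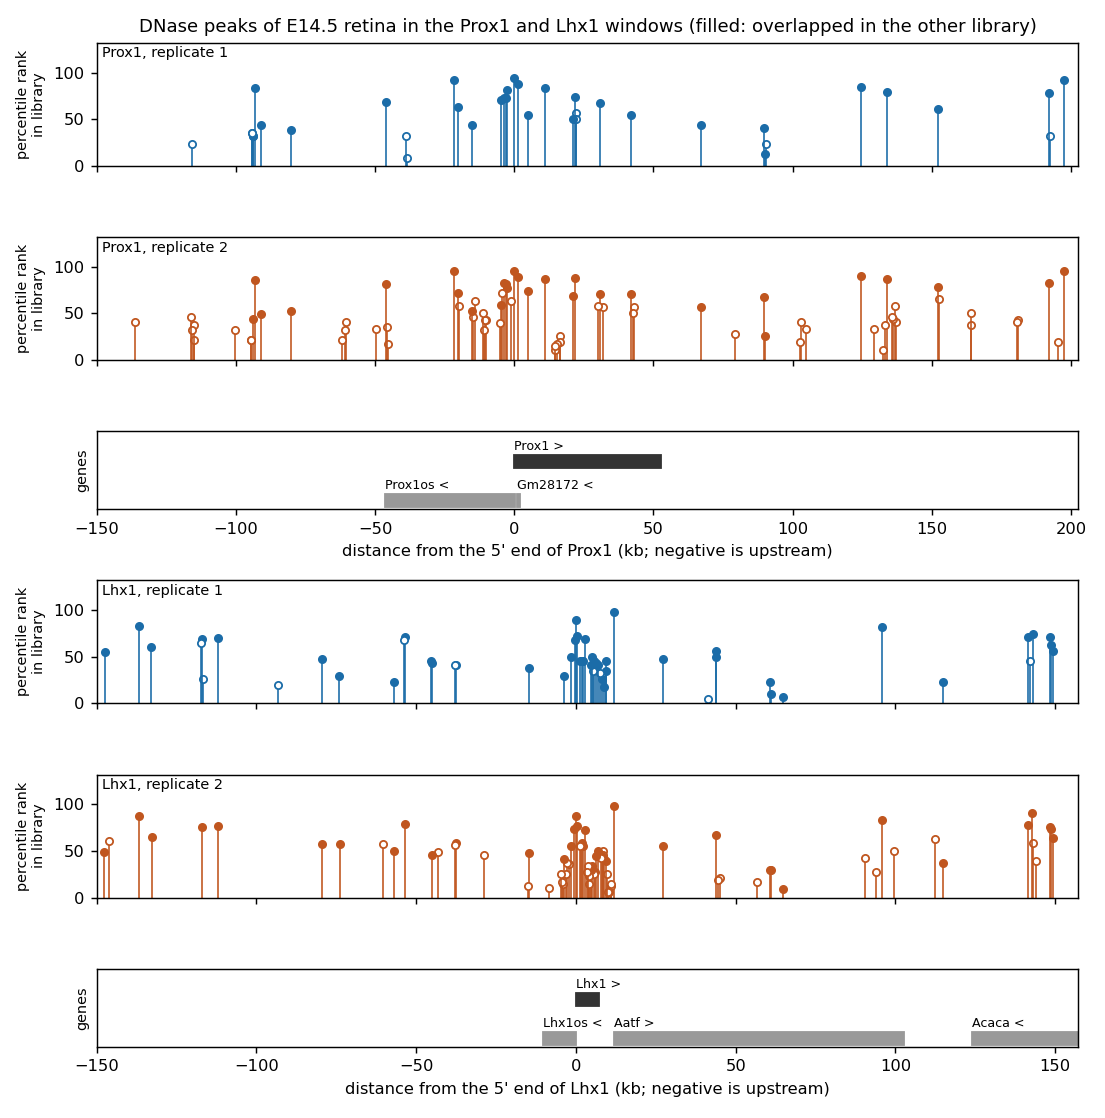
Percentile rank of every peak in each window against distance from the 5' end in kb, by gene and library, filled points being overlapped by a peak of the other library. High ranks are scattered over the whole Prox1 window, from 93.1 kb upstream to 197.5 kb downstream, while the Lhx1 window has its highest peak at Aatf, 12.0 kb downstream (98.5 and 98.7), and its densest run of peaks over Lhx1 itself.

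Away from promoters, the strongest peak of the Prox1 window lay 21.5 kb upstream. It scored 93 in replicate 1 and 124 in replicate 2, ranks of 92.1 and 95.7, level with the promoter of the gene. The second lay 197.5 kb downstream, nearer to the start of Smyd2, with scores of 92 and 122 and ranks of 91.8 and 95.2. The third, 124.7 kb downstream, scored 72 and 106 and ranked 84.9 and 90.4. All 3 had the same boundaries in both libraries to the base. Prox1's next 4 shared distal peaks lay 11.1 kb inside the gene, 93.1 kb upstream, and 133.8 and 192.3 kb downstream, with ranks from 78.5 to 83.6 in replicate 1 and from 82.6 to 86.9 in replicate 2. The eighth was the member of the upstream group at 2.44 kb.

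Distal peaks of Lhx1 ranked lower. The leading one, 136.6 kb upstream, scored 68 and 99, ranks of 83.2 and 87.4. The next, 95.8 kb downstream in Aatf, scored 66 and 91, ranks of 82.2 and 83.6. The third, 142.9 kb downstream in Acaca, differed most between the libraries among these, with scores of 52 and 107 and ranks of 74.4 and 90.8. Another pair of peaks stood beside it in Acaca at 141.4 and 148.4 kb, both with rank 71.7 in replicate 1 and with 77.7 and 75.4 in replicate 2. On the upstream side, peaks at 53.4, 112.0 and 117.1 kb ranked 71.0, 70.2 and 68.6 in replicate 1 and 79.4, 77.2 and 75.4 in replicate 2. The nearest coding start to all 3 was that of Lhx1, since Mrm1 starts 294 kb upstream. Only 1 of the 54 peaks of the Lhx1 window in replicate 1 and 2 of 79 in replicate 2 ranked 90 or above. For Prox1 it was 3 of 38 and 4 of 78. These are 1.85% and 2.53% for Lhx1 and 7.89% and 5.13% for Prox1. All are below the share of all peaks of a library that rank 90 or above, which the percentile scale fixes. The counts take in promoter peaks, and the 1 in the Lhx1 window of replicate 1 is that of Aatf.

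Over the whole windows, Prox1 held 38 peaks in replicate 1 and 78 in replicate 2, and Lhx1 held 54 and 79. Per 100 kb of window this was 10.8 and 22.1 peaks for Prox1, a mean of 16.4 ± 8.02 (SD, n = 2). For Lhx1 it was 17.6 and 25.7, a mean of 21.6 ± 5.75 (SD, n = 2). The median over all coding genes was 9.05 and 11.6. Lhx1's density exceeded that of 85.9% of coding genes in replicate 1 and 95.6% in replicate 2. Prox1 exceeded 59.7% and 90.7%, so its standing differed widely between the libraries. Lhx1 was the denser in both libraries, but there were only 2 and the difference was not tested. Each SD holds the shift of 1 gene between the libraries, so it does not measure the spread of the difference between the genes. A few peaks overlapped others of the same library, and the peaks formed 34 and 73 separate stretches for Prox1 and 52 and 77 for Lhx1.

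**Figure D3:**
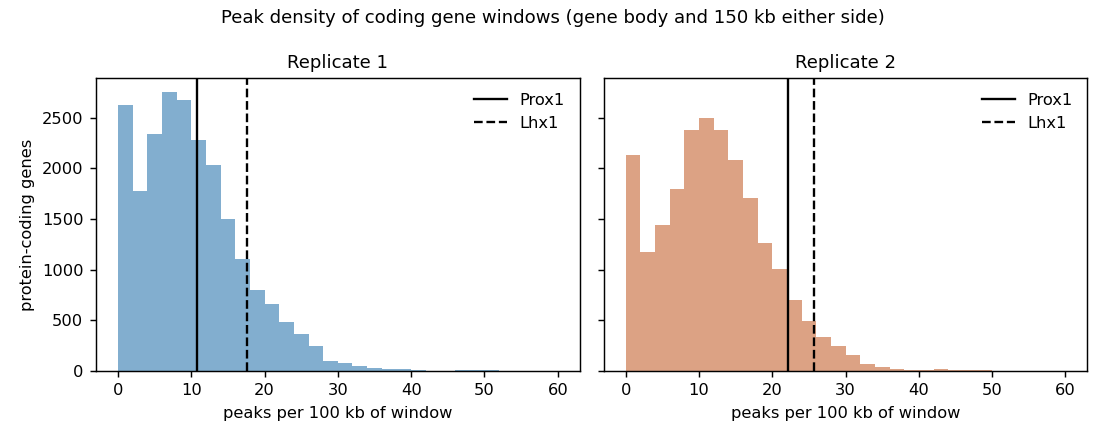
Number of coding genes by peaks per 100 kb in their windows, in each library, with Prox1 (solid line, 10.8 and 22.1) and Lhx1 (dashed line, 17.6 and 25.7). Prox1 stands near the middle in replicate 1 and in the upper tail in replicate 2, and Lhx1 in the upper part of both.

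Both windows held few other genes, and so few promoters of neighbours. Among the 2822 windows with the 5' end of at most 1 other coding gene, whose median density was 5.19 and 7.56, Prox1 exceeded 87.3% in replicate 1 and 98.2% in replicate 2. Lhx1 exceeded 98.0% and 99.1%. With distal peaks alone counted, Prox1 exceeded 86.7% and 99.2% of all coding genes and Lhx1 97.0% and 99.3%. By section, the body of Prox1 held 19.0 and 32.3 peaks per 100 kb, its upstream side 12.0 and 24.0, and its downstream side 6.67 and 16.7. Around Lhx1 the upstream side held 14.7 and 19.3 per 100 kb and the downstream side 14.0 and 22.0. Peaks of the Prox1 window were intronic in 17 and 34 cases and intergenic in 18 and 41. For Lhx1 they were intronic in 18 and 29 cases and intergenic in 24 and 31. Introns of any gene count here, those of Prox1os, Lhx1os, Aatf and Acaca included. The shares over all peaks were not computed, so these counts only describe the windows.

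Hotspots covered 3.48% and 7.62% of the Prox1 window and 4.62% and 9.01% of the Lhx1 window, where the median window had 3.31% and 4.62%. The cover of Prox1 exceeded that of 52.6% and 80.6% of coding genes, and that of Lhx1 68.6% and 88.3%. The Prox1 window held 37 and 69 hotspots, and the Lhx1 window 49 and 57. The authors' −log10 false discovery rate reached its ceiling of 100 at 10 and 19 of the Prox1 hotspots and at 9 and 12 of the Lhx1 hotspots. These are 27.0% and 27.5% for Prox1 and 18.4% and 21.1% for Lhx1, below the 34.4% and 38.0% of all hotspots in the libraries.

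The libraries shared most of what replicate 1 held and less of what replicate 2 held. Of the Prox1 peaks of replicate 1, 30 of 38, or 78.9% (95% exact Clopper-Pearson interval 62.7 to 90.4%), were overlapped by a peak of replicate 2. For Lhx1 it was 45 of 54, or 83.3% (70.7 to 92.1%), and for all peaks of replicate 1 it was 73.1%, inside the first interval and the second. In the other direction, 28 of 78 Prox1 peaks of replicate 2 were overlapped, or 35.9% (25.3 to 47.6%), below the 53.9% of all its peaks. For Lhx1 it was 42 of 79, or 53.2% (41.6 to 64.5%), close to that background. The intervals cover counting error only, and neighbouring peaks are not independent.

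Prox1 gained more peaks in replicate 2 than most windows did. It held 2.05 times as many there as in replicate 1, a ratio above that of 97.6% of the 18781 coding gene windows with at least 10 peaks in replicate 1, whose median was 1.23. The ratio of Lhx1 was 1.46, above 77.9% of them. With the 165269 strongest peaks taken from each library, Prox1 still had 38 and 66 peaks, and Lhx1 54 and 65. Of the 50 Prox1 peaks that only replicate 2 held, 0 lay in a hotspot of replicate 1, where 10.3% of all such peaks did. For Lhx1 it was 2 of 37. The Prox1 peaks of replicate 2 alone had a median rank of 38.4 and a highest of 72.2, against a median of 78.0 for those it shared. For Lhx1 these were 27.6, 62.7 and 57.1. The strongest sites of both windows were thus held by both libraries. The part of depth in the gain was not tested.

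**Figure D4:**
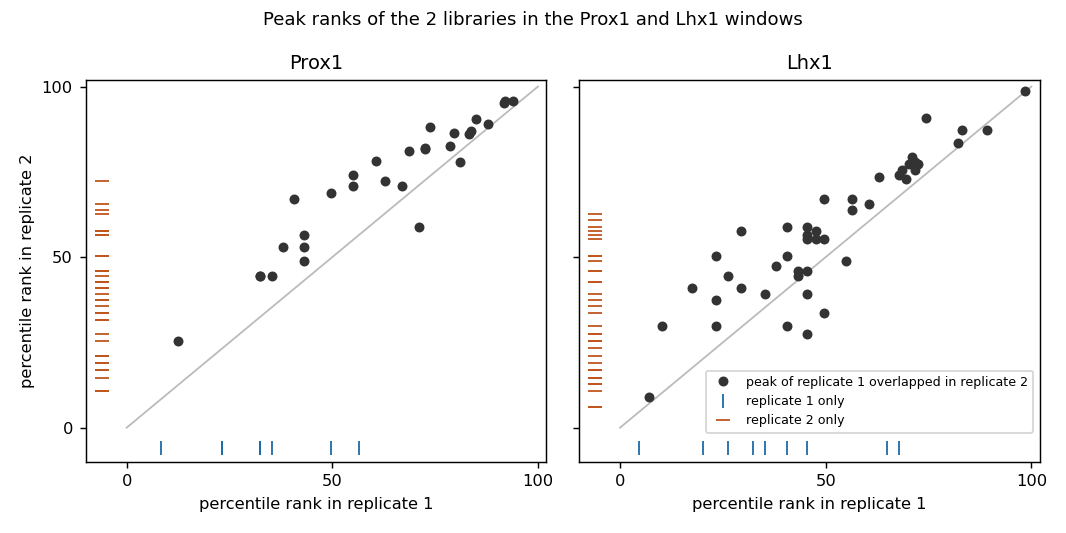
Percentile rank in replicate 2 against that in replicate 1 for the 30 Prox1 and 45 Lhx1 peaks of replicate 1 that replicate 2 overlapped, with ticks along the axes for peaks held by 1 library. Ticks of replicate 2 are many, reach rank 72.2 for Prox1 and 62.7 for Lhx1, and the points rise together, mostly above the line of equal rank.

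At the shared peaks the order of strength was alike. Across the 30 shared Prox1 peaks the Spearman correlation of rank was 0.951, and across the 45 of Lhx1 it was 0.867. Over all 120845 shared peaks of replicate 1 it was 0.929. These points are sites of the same 2 libraries and are a description. The rank was higher in replicate 2 at 28 of 30 Prox1 peaks and 39 of 45 Lhx1 peaks, as it was at 78.8% of all shared peaks. The largest shifts were 26.4 rank points for Prox1 and 28.4 for Lhx1.

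Among the letters searched in the windows' distal peaks, only some are described here, chosen after their values were seen, and the numbers are small. AGGTCA, the nuclear receptor letters, occurred in 9 of 36 distal peaks of Prox1 in replicate 1 (against 11.9% of all) and in 14 of 76 in replicate 2 (against 12.5%). Some of these peaks overlap each other, and with overlapping peaks joined it was 7 of 32 and 13 of 71 separate stretches. TGACAG, the letters of MEIS factors, occurred in 11 of 47 Lhx1 distal peaks (against 15.3%) and in 14 of 68 (against 16.4%), or in 10 of 45 and 14 of 67 separate stretches. CTCF letters were found in 1 of 36 and 1 of 76 distal Prox1 peaks and in 2 of 47 and 1 of 68 of Lhx1, lower shares than among all distal peaks in both libraries. ACAATG, the letters of SOX factors, was also less frequent in both windows. It occurred in 5.56% and 5.26% for Prox1 and 4.26% and 4.41% for Lhx1, against 9.76% and 10.3% of all. CAGATG was more frequent, at 22.2% and 23.7% for Prox1 and 19.1% and 22.1% for Lhx1, against 16.4% and 17.0%. GGAATG of TEAD factors was less frequent at Lhx1, at 2.13% and 4.41% against 9.27% and 9.40%. At Prox1 it was lower in replicate 1 (5.56%) and higher in replicate 2 (10.5%). Peaks lying mostly in repeats were absent from the Prox1 window and numbered 1 of 54 and 1 of 79 for Lhx1. They made up 4.76% and 4.91% of all peaks, so few were to be found in windows of this size.

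The other genes known from horizontal cells gave Prox1 and Lhx1 their setting. Of 20 such genes, 19 had a promoter peak in both libraries, where the background was 68.8%. The exception was Gja10, a connexin of mature horizontal cells. The median density over the 20 windows was 12.8 and 16.7 peaks per 100 kb, and 8 and 11 of them lay above the upper quartile of all coding genes, which was 14.0 and 16.7. Among all 22 genes with the members included, Lhx1 came 4th by its mean, 5th in replicate 1 and 4th in replicate 2. Prox1 came 10th by its mean, but 16th in replicate 1 and 7th in replicate 2.

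Pax6, a central regulator of eye formation, led the list at 29.8 and 34.1 peaks per 100 kb, followed by Onecut3 at 22.0 and 27.9 and the AP-2 factor gene Tfap2b at 22.1 and 23.4. Calb1, which encodes the calcium-binding protein calbindin of mature horizontal cells, was lowest at 2.75 and 3.98. Ptf1a held 12.3 and 13.9 peaks per 100 kb and Foxn4 15.3 and 17.8, so both lay above Prox1 in replicate 1 and below it in replicate 2, and both lay below Lhx1 in either library. Onecut2, at 11.1 and 21.1, and Isl1, at 9.95 and 20.2, showed differences between the libraries like that of Prox1, while Onecut1 went the other way at 21.5 and 16.7. With 2 libraries, the neighbours of Prox1 in the order, Foxn4 above (mean 16.6) and Onecut2 below (mean 16.1), could not be separated from it, nor could Sept4 (mean 21.6) from Lhx1.

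**Figure D5:**
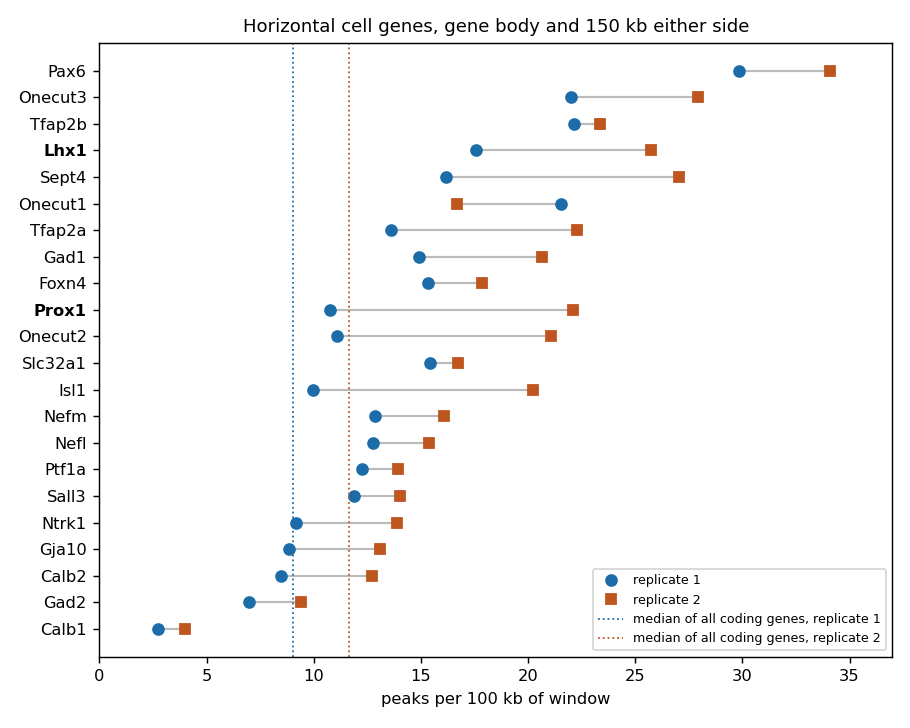
Peaks per 100 kb in the windows of the 20 horizontal cell genes and the 2 members (bold), ordered by mean, with circles for replicate 1, squares for replicate 2 and dotted lines at the medians of all coding genes (9.05 and 11.6). Lhx1 lies 4th with values of 17.6 and 25.7, and Prox1 10th with one of the widest gaps between libraries, 10.8 to 22.1.

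The windows most like each member were looked for over 4 values, the log2 of peak density and of hotspot cover in both libraries, by Euclidean distance. Nearest to Prox1 was Dmrt2, a DM-domain factor gene, at a distance of 0.0835, with 11.1 and 21.9 peaks per 100 kb. Chrng, which encodes a subunit of the acetylcholine receptor, followed at 0.140, and then came Gm20538, Hnrnpk and Gm26897. Nearest to Lhx1 were the transcription factor genes Hand2 (0.145) and Dbx1 (0.155), followed by Abl1, Eya2 and Klhdc7a.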

How the data were processed

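DNase-seq of 2 libraries of embryonic retina was used, for which the authors deposited a peak list and a hotspot list each, on mm10. Which aligner and caller made them is not given in the sources used here. Peak scores of the authors run from 1 to 150, with no stated meaning. Each hotspot carries the authors' −log10 false discovery rate, at least 1.30. Exact duplicate lines (34 and 56) were removed. Scores were turned into percentile ranks over all peaks of a library, ties averaged. Overlaps needed 1 bp. Genes and transcript starts came from GENCODE M21, and distances are from a peak's middle to the gene's 5' end. A percentile among coding genes is the share of genes with a lower value. Sequences and motif letters, 16 patterns on both strands, were read with pysam 0.24.0 from the RefSeq genome. Python 3.11, numpy 2.4.6 and scipy 1.17.1 were used, and the counting steps were tested on simulated data. The 3 RefSeq promoter entries matched the genome.

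Named peaks were all promoter peaks, the 8 shared distal peaks with the highest lower rank per gene, and the strongest peak of each library alone. Peaks described close to the 5' ends were added after their values were seen. The members, gene lists and motifs were chosen with earlier results of these data known. The horizontal cell marker list includes both members. With 1 group of 2 libraries no test between conditions was possible, the files give no depth, and the spread is that of 2 libraries with the same donor label.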

Additional observations from a re-analysis of the deposited data

How the results depend on the processing

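Windows of 50, 100 and 250 kb, a stricter overlap (50% of the peak), peaks at or above the median score, equal numbers of the strongest peaks, distal peaks only, hotspots with −log10 false discovery rate of at least 10 and narrower promoter definitions were tried. Peaks with a score in decimal form (12.1% and 7.80%) were left out as an alternative added after seeing the data. Of the values so recomputed, 38 moved by less than the spread (SD over libraries, or the interval of a share) and 8 by more. At or above the median score, the shared part of Prox1 peaks of replicate 1 was 91.3%, and the Lhx1 window had 9.44 peaks per 100 kb and a percentile of 75.8. The Prox1 window had 8.51 peaks per 100 kb there and a percentile of 70.3. Fewer peaks are counted by construction. With 50 kb on either side, Lhx1 had 38.2 peaks per 100 kb and 12.3% hotspot cover, since its peaks crowd at the gene. Its percentile was 98.1 with distal peaks only. Its shared part was 61.1% with the stricter overlap, and its cover 3.03% with the stricter hotspots, where that of Prox1 was 3.13%. These Prox1 values of density, percentile and cover count as moved by less than the spread, while its shared part of 91.3% counts as moved by more. The SD of density was 8.02 for Prox1 and 5.75 for Lhx1, so the same shift counts for less at Prox1. For cover the SD was 2.93 for Prox1 and 3.10 for Lhx1. Leaving out 1 library gave the other's value. For Prox1 this was 10.8 to 22.1 peaks per 100 kb, percentiles of 59.7 to 90.7, 3.48 to 7.62% cover and promoter ranks of 93.8 to 95.9. For Lhx1 it was 17.6 to 25.7, 85.9 to 95.6, 4.62 to 9.01% and 87.4 to 89.2. No paired analysis was possible because there was 1 group. The files give no read numbers, so a site held by 1 library may have been missed in the other, and no detection limit could be set.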
